A study of Mus musculus with 6 samples.

Results

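The nuclear-encoded subunits of the oxidative phosphorylation system were examined in endothelial cells (ECs) of the mouse liver. Members were the genes whose symbols begin with Ndufa, Ndufb, Ndufc, Ndufs or Ndufv and a digit, with Uqcr, Sdha to Sdhd, Cox4i, Cox5, Cox6, Cox7 or Cox8, or with Atp5 and a letter. Assembly factors with "af" in the symbol and pseudogenes ending in "-ps" were left out. The rule found 84 of the 24421 gene symbols in the count table, of which 79 were among the 14612 genes tested. By the complex they belong to, 35 were in complex I, 4 in complex II, 8 in complex III, 20 in complex IV and 17 in complex V. Ndufa4 and Ndufa4l2 were counted with complex IV, where the Ndufa4 protein is now placed, and Cox7a2l, a supercomplex factor, was also counted there. Atp5s and Atp5sl were counted with complex V by name only. Members lay on 19 chromosomes and 0 on the mitochondrial chromosome.

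Liver ECs had been sorted as CD31+CD45- cells from wild-type C57BL/6J mice, female by the study's methods. The young group held 3 mice of 10 weeks. The aged group held 3 mice of 127, 131 and 136 weeks, named here by those weeks. No group carried a transgene, deletion or drug treatment in the labels, and each library came from 1 sorted sample. Sorting was on 2 surface proteins alone, so ECs of sinusoids and of larger vessels were pooled.

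Oxidative phosphorylation is the process by which mitochondria make ATP. Complex I takes electrons from NADH and complex II takes them from succinate, complex III passes them from ubiquinol to cytochrome c, and complex IV passes them on to oxygen. Complexes I, III and IV pump protons across the inner membrane, and complex V, the ATP synthase, lets them flow back to form ATP. Most subunits are encoded in the nucleus and a small set in mitochondrial DNA, so the 2 genomes must supply parts of the same enzymes. ECs are known for drawing much of their ATP from glycolysis while using mitochondria for biosynthesis and signalling.

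Total counts ran from 23001556 to 31651817 per library. All 12 endothelial markers checked were detected, and their summed level was 23000 to 24600 CPM (counts relative to library size, after TMM scaling) in young and 13600 to 18700 CPM in aged ECs. The markers differed in this, with 8 of 12 log2 fold changes below 0 and 4 above. Clec4g had a mean of 3940 CPM in young and 1430 CPM in aged ECs, and Stab2 3040 and 935 CPM. Pecam1, the gene of CD31, was at 1440 and 1460 CPM. Other cell types were present at lower summed levels. Leukocyte markers summed to 50 to 93.4 CPM in young and 48.0 to 584 CPM in aged samples, and the 6 cholangiocyte markers to 88.1 to 105 CPM in young and 189 to 238 CPM in aged samples. Hepatocyte markers summed to 292 to 382 CPM in young and 213 to 342 CPM in aged samples. These sums overlapped, with Trf alone at 116 to 172 CPM in young and 105 to 243 CPM in aged samples. Even so, 13 of 14 tested hepatocyte markers had a log2 fold change below 0 (median -0.88). At an unadjusted p below 0.05 by edgeR, 7 of them were lower in aged samples, where 4.32% of all genes tested were. At that p, 4 of 12 endothelial and 1 of 15 stellate and mural cell markers were also lower. Higher were 10 of 20 leukocyte and 2 of 6 cholangiocyte markers, where 8.32% of all genes were. Stellate and mural cell markers summed to 214 to 582 CPM in young and 300 to 909 CPM in aged samples. Erythroid markers summed to at most 12.7 CPM, with 6 of 9 at 0 counts in all samples, and platelet markers to at most 26.9 CPM. The libraries also differed in a way that age does not explain. Lars2 and Rn45s, symbols that collect ribosomal RNA reads, took 1.29% of the counts in young 3 and 0.960% in the 127-week sample but 4.68% to 5.53% in the other 4. These are called the few-rRNA and many-rRNA libraries below, and each holds both ages.

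The members were among the most abundant transcripts of liver ECs at both ages. Of the 84, 59 were among the 1000 genes of highest mean FPKM (fragments per kilobase of transcript, scaled to library size, the scale used here to compare genes) in young ECs, and 70 among the first 2000 of 24346 genes. The summed FPKM of all members was 15200 ± 3820 in young and 13900 ± 3160 in aged ECs (mean ± SD, n = 3 each). By complex, the summed FPKM was 4980 ± 1220 in young and 4390 ± 940 in aged ECs for complex I, and 459 ± 48.6 and 445 ± 11.5 for complex II. It was 1920 ± 450 and 1720 ± 390 for complex III, 3890 ± 1110 and 3590 ± 965 for complex IV, and 4000 ± 981 and 3730 ± 837 for complex V. Every one of these age differences was smaller than the SD within either age, except that of complex II, which exceeded the SD of the aged group alone. In bulk RNA, fewer cells of a type and less RNA per cell cannot be told apart.

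Cox6a1, the broadly expressed form of a small subunit at the edge of cytochrome c oxidase, had the highest mean FPKM in young ECs at 636 ± 196. It was followed by Atp5b, the catalytic beta subunit of the ATP synthase (588 ± 83.8), and by Cox4i1, the subunit 4 isoform of most tissues (558 ± 118). These neighbours in the order did not differ beyond their spread. The order itself was almost the same at both ages. Of the 10 highest members in young ECs, 9 were among the 10 highest in aged ECs, and Spearman's rho between the mean FPKM of the ages was 0.994 over the 84 members, whose values share libraries. Setting aside the tissue-restricted isoforms described next, the median FPKM in young ECs was 144 for complex I, 116 for complex II, 208 for complex III, 312 for complex IV and 217 for complex V. Among complex I subunits the mean FPKM in young ECs ran from 22.0 for Ndufs5 to 371 for Ndufa3. Ndufs5 had 0 counts in every sample, as described below, and Ndufa11 came next at 22.3.

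Several subunits of cytochrome c oxidase come in alternative isoforms, and liver ECs expressed mainly the broadly used set. The 8 isoforms known to be restricted to certain tissues or conditions had a median FPKM of 1.03 in young ECs, against 159 for the other 76 members. Ndufa4l2, a hypoxia-induced relative of Ndufa4, was the highest of them. Its FPKM was 2.66, 2.82 and 0.869 in young and 1.47, 2.52 and 4.33 in aged samples, while Ndufa4 was at 539, 487 and 235 in young and 241, 454 and 347 in aged samples. Cox4i2, the subunit 4 isoform of lung and of low oxygen, was at 2.69, 2.77 and 0.726 in young and 1.11, 2.52 and 3.98 in aged samples, against 636, 615 and 422 and then 393, 701 and 495 for Cox4i1. Both restricted isoforms were lowest in young 3, next lowest in the 127-week and highest in the 136-week sample. They are also known from vascular mural cells, and the summed stellate and mural cell markers were lowest in young 3 (214 CPM) and highest in the 136-week sample (909 CPM). In the 127-week sample the sum was 516 CPM, of which Reln, listed as a stellate cell gene, made up 351 CPM, as it did 495 CPM in the 136-week sample. Reln and Kcnj8 were higher in both of these samples than in young 1 and young 2. Lrat, Col1a1, Col1a2, Col3a1 and Lum of the same list were lower in both, so the sums do not stand for the list as a whole. The mural markers Rgs5, Cspg4, Des, Acta2 and Notch3 were each lowest in the 127-week sample, next lowest in young 3 and highest in the 136-week sample. Other mural markers of the list differed from this order. Pdgfrb was lowest in young 3, at 16.4, 11.5 and 6.09 CPM in young and 8.87, 12.8 and 18.2 CPM in aged samples. Myh11 was higher in young 3 than in young 1 and young 2, at 11.9, 8.98 and 15.1 CPM in young and 5.26, 19.7 and 21.2 CPM in aged samples. Rgs5 was at 8.60, 7.67 and 4.04 CPM in young and 3.75, 8.40 and 14.8 CPM in aged samples. The part of stellate and mural cells in the values of Ndufa4l2 and Cox4i2 was not tested.

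The heart and muscle forms had few counts. By mean FPKM in young ECs, Cox7a1 (2.00 ± 2.04) was near Cox4i2 (2.06 ± 1.16), and Cox6a2 (0.185 ± 0.321) was lower. Cox7a1 had 21, 7 and 0 counts in young and 7, 6 and 7 in aged samples. Cox6a2 had 7, 0 and 0 counts in young and 2, 0 and 7 in aged samples. Neither showed a level that separated the ages, whereas their partners Cox7a2 and Cox6a1 stood at 171 ± 52.8 and 636 ± 196 FPKM in young ECs. The testis forms Cox6b2, Cox7b2 and Cox8c were at 6 to 22 counts, at 0 counts in every sample, and at 1 count in young 2 alone. At 3 counts, taken as the limit that a count of 0 allows, a level of up to 0.130 CPM in the shallowest library could have gone undetected for Cox7b2, and this limit covers counting error only. Their partners Cox6b1, Cox7b and Cox8a were at 496 ± 113, 47.2 ± 15.6 and 416 ± 103 FPKM in young ECs. Cox8b, the subunit 8 isoform of heart, muscle and brown fat, had 0, 0 and 1 counts in young and 2, 8 and 4 in aged samples. It was thus the only isoform of the 8 whose ages did not overlap, at levels too low to enter the main test. Of all tested genes, 9.62% were higher in every aged sample. For Cox8b the separation rested on 1 count in young 3 and 2 in the 127-week sample, both below the limit of 3 counts.

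**Figure D1:**
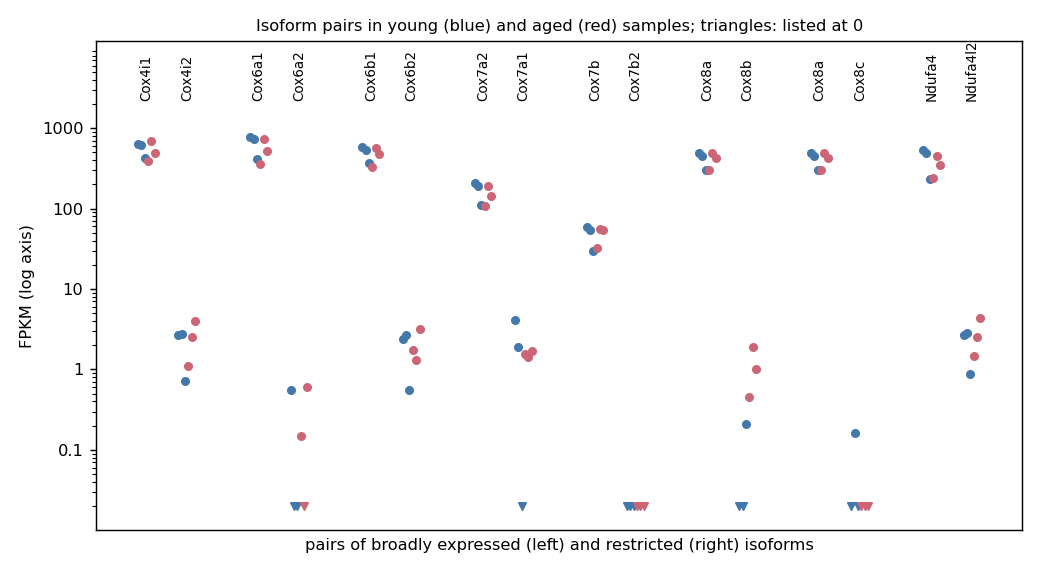
Isoform pairs of complex IV. The vertical axis is FPKM on a log scale, each point is 1 sample (3 young in blue, 3 aged in red), and triangles mark values listed at 0. Each restricted isoform lies far below its partner in all 6 samples. Cox8b is the one whose young and aged points do not overlap, at no more than 8 counts in any sample.

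Promoter sequence was compared for the same pairs, because the level of broad and restricted isoforms differed most within the set. Windows of 300 bases (250 before and 50 after the annotated start) were taken from RefSeq on GRCm38.p6 for 69 of the 84 members. Searched on both strands were GCGCATGCG (a nuclear respiratory factor 1 motif, whose strands overlap each other by all but 1 base where GCGCATGCGC occurs), CCGGAAG (an ETS motif, as bound by GABPA), AAGATGG (a YY1 motif) and GGGCGG (an Sp1 motif). Of the 65 members outside the restricted list, 12.3% held the nuclear respiratory factor 1 motif, 24.6% the ETS motif and 18.5% the YY1 motif. The shares over all 27025 genes with a promoter were 1.95%, 9.93% and 7.28%, and over the 11442 other tested genes 3.67%, 18.2% and 8.0%. At least 1 of the 3 motifs was present in 47.7% of the 65 members and in 27.1% of the other tested genes. The Sp1 motif was in 40% of the members, 65.6% of the other tested genes and 38.2% of all promoters. The 4 restricted isoforms with a window held 0 of the first 3 motifs, and the Sp1 motif was in 2 of them. The windows held a median of 20 CpG pairs in the 65 members, 8.5 in the restricted isoforms and 19 in other tested genes. A match to these letters is a description and not evidence of binding.

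Shown are the 2 broad and restricted pairs with the subunit 7a and 8 isoforms, and Atp5k, whose level differed most between libraries. Capitals mark the nuclear respiratory factor 1, ETS and YY1 motifs.
Cox8a, chr19:7217567-7217866, minus strand: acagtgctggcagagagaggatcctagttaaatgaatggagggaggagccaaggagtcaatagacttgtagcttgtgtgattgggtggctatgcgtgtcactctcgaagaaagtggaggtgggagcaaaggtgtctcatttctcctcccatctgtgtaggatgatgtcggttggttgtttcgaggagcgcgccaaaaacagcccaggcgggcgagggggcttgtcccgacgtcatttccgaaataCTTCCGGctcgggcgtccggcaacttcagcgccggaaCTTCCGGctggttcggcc
Cox8b, chr7:140900397-140900696, minus strand: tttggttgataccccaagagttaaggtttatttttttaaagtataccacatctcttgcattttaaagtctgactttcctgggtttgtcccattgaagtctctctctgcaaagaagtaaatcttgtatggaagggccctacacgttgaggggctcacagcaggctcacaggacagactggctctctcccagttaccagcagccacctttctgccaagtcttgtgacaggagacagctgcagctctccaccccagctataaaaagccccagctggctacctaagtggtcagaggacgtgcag
Cox7a2, chr9:79759804-79760103, minus strand: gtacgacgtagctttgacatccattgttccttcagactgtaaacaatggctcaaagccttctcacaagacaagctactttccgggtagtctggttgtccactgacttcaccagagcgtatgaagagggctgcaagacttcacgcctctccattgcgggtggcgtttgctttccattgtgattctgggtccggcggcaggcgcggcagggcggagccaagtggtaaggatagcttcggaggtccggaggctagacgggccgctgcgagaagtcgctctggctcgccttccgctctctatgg
Cox7a1, chr7:30183921-30184220, plus strand: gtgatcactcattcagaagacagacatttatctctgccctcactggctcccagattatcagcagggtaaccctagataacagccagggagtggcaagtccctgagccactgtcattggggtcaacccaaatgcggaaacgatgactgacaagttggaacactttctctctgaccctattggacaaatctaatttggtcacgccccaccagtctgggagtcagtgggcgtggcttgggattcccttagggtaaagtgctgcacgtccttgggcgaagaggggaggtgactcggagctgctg
Atp5k, chr5:108434350-108434649, minus strand: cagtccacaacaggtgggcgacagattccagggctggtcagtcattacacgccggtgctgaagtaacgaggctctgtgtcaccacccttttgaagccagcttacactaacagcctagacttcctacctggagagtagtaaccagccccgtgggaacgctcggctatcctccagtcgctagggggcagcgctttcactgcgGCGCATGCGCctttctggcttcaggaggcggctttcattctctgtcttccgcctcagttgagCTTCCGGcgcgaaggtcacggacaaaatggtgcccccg
The Cox8a window held 2 ETS motifs and 19 CpG pairs, whereas that of Cox8b held 0 of the 3 motifs and 2 CpG pairs. The Cox7a2 window held 20 CpG pairs and that of Cox7a1 7, and neither held any of the 3 motifs, so the letters searched did not separate this pair. Atp5k had both a nuclear respiratory factor 1 and an ETS motif.

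Next, expression was compared between aged and young ECs, the comparison the study was designed for. In edgeR's quasi-likelihood test over 14612 genes, 0 of the 79 members passed an adjusted p of 0.05, as did 0% of all genes tested. At an unadjusted p below 0.05, 0 members were higher and 0 lower in aged ECs, where 8.32% and 4.32% of all genes were. The member with the smallest p was Ndufs4, an accessory subunit of complex I (log2 fold change -0.21 ± 0.14 SE, adjusted p = 0.586 by edgeR). The ages did not overlap in 0 members in either direction, where 9.62% of all genes were higher in every aged sample and 8.33% lower. DESeq2 likewise called 0 members at an adjusted p of 0.05, where 4.42% of the 14262 genes with an adjusted p were called, and the smallest adjusted p of a member was 0.644. Apart from the adjusted edgeR count, which was 0 for both, the share of members called was below that of all genes in these counts. That contrast was not tested.

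The estimates themselves were small and mostly below 0. The median log2 fold change was -0.10 over the 79 members and 0.01 over all genes, and 64 members lay below 0 and 15 above. They ranged from -0.52 for Cox7a1 to 0.38 for Ndufa4l2, both of low level. The median was -0.15 in complex I, -0.03 in complex II, -0.11 in complex III, -0.07 in complex IV and -0.10 in complex V, and the 95% intervals of single members had a median half-width of 0.62. For 63 of 79 members the interval lay within a log2 fold change of 1 on either side of 0. In 72 of the 78 members with counts in every sample, the SD of log2 CPM within an age exceeded the difference between the ages (median 0.40 against 0.12). The direction was not the same with every library left out. The median was -0.29 without young 3 and -0.23 without the 131-week sample, but 0.03 without the 127-week sample and 0.03 without young 1. With a term for few-rRNA and many-rRNA libraries beside age, described below, the median was -0.10, with 63 members below 0 and 16 above.

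**Figure D2:**
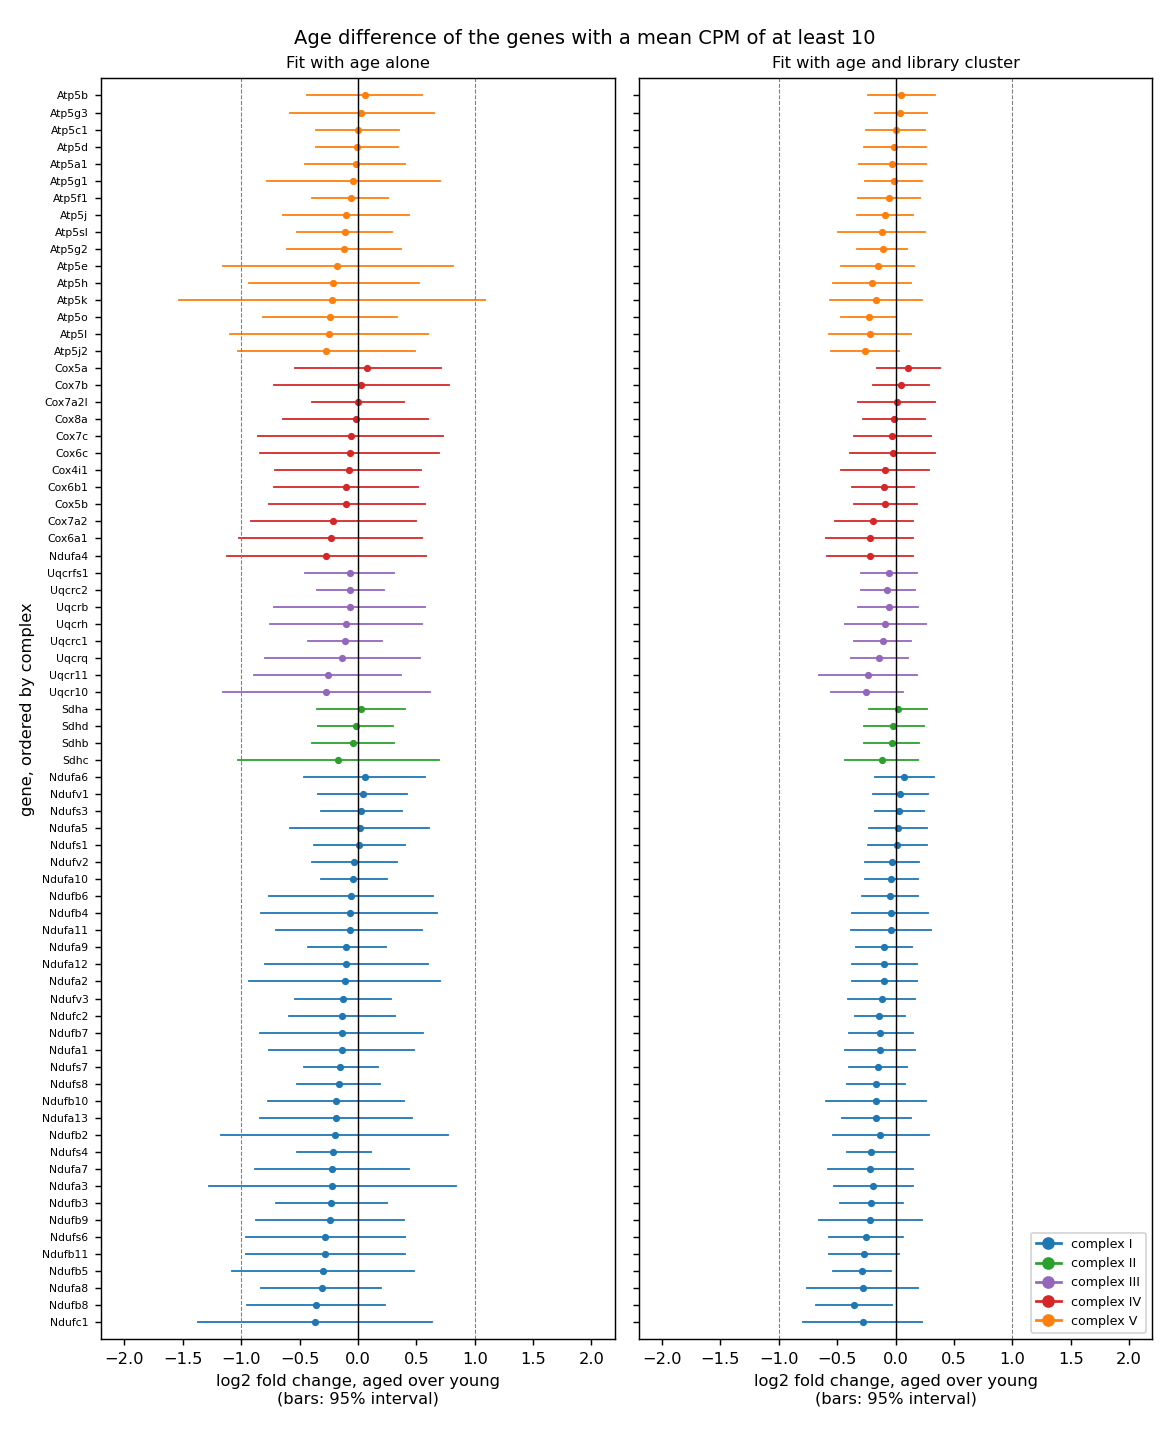
Log2 fold change (aged over young) of 73 of the 74 members with a mean CPM of at least 10, ordered by complex, with 95% intervals. Left, the fit with age alone, and right, the fit that also holds the library cluster. Every interval on the left spans 0, and intervals are narrower on the right, where those of Ndufb5 and Ndufb8 lie below 0.

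Complex I, the entry point for electrons from NADH, had 29 of 34 tested subunits below 0. Ndufa3, a small accessory subunit of the membrane arm and the complex I gene of highest FPKM, was at 73.4, 65.8 and 26.3 CPM in young and 25.4, 66.5 and 50.1 CPM in aged samples. Both low values came from the few-rRNA libraries, 1 of each age, and the ages overlapped (log2 fold change -0.22 ± 0.45 SE, edgeR adjusted p = 0.898). Ndufc1, an accessory subunit, had the lowest estimate among well-expressed subunits. It was at 59.7, 49.3 and 19.5 CPM in young and 21.9, 45.2 and 32.2 CPM in aged samples (-0.37 ± 0.43). Ndufa6, an accessory subunit of the LYR protein family, had the highest estimate, at 68.9, 68.1 and 44.2 CPM in young and 51.2, 73.3 and 64 CPM in aged samples (0.06 ± 0.22). Neither gene separated the ages. The core subunits Ndufs1, Ndufs3, Ndufs7, Ndufs8, Ndufv1 and Ndufv2, which carry the flavin or iron-sulfur clusters or are needed for the core, differed by a log2 value of only -0.31 to 0.31 between the few-rRNA and many-rRNA libraries. Ndufs1, the largest of them, was at 63.7, 60.9 and 81.1 CPM in young and 76.3, 69.8 and 60.7 CPM in aged samples, with its highest values in the few-rRNA libraries.

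Complex II, succinate dehydrogenase, also works in the tricarboxylic acid cycle and is wholly nuclear-encoded. Sdha, its flavoprotein, was at 380, 355 and 426 CPM in young and 449, 368 and 365 CPM in aged samples (0.03 ± 0.16 SE). Sdhc, a membrane anchor, was at 115, 98.9 and 46.1 CPM in young and 50.6, 94.2 and 86.6 CPM in aged samples (-0.17 ± 0.37). The flavoprotein was thus highest, and the anchor lowest, in the same pair of libraries, and neither gene separated the ages.

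All 8 subunits of complex III, the cytochrome bc1 complex, lay below 0, between -0.27 and -0.07. Uqcrb, which helps to form the ubiquinone site, was at 180, 161 and 100 CPM in young and 99.5, 167 and 153 CPM in aged samples (-0.07 ± 0.28 SE). Uqcr10, a small subunit, was at 71.6, 67.0 and 31.3 CPM in young and 28.7, 62.8 and 49.3 CPM in aged samples (-0.27 ± 0.38). The core proteins were steadier across libraries. Uqcrc2 was at 126, 117 and 123 CPM in young and 114, 122 and 114 CPM in aged samples, so young 3, the low young library of the small subunits, was not low for it.

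In complex IV, 10 of 16 tested members lay below 0. Cox6a1 was at 260, 247 and 134 CPM in young and 120, 250 and 176 CPM in aged samples (-0.23 ± 0.34 SE). Cox5a, a matrix-side subunit, was at 97.7, 88.3 and 52.0 CPM in young and 64.5, 90.7 and 96.5 CPM in aged samples (0.08 ± 0.27). Ndufa4 was at 160, 145 and 67.5 CPM in young and 69.1, 136 and 104 CPM in aged samples (-0.27 ± 0.36). In each of these genes young 3 and the 127-week sample were the lowest, and the ages overlapped.

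Complex V had 14 of 17 members below 0. Atp5b was at 1120, 1080 and 834 CPM in young and 832, 1200 and 1120 CPM in aged samples (0.06 ± 0.21 SE). Atp5j2, the f subunit of the membrane part, was at 85.9, 75.4 and 41.7 CPM in young and 37.4, 71.3 and 59.1 CPM in aged samples (-0.27 ± 0.32). The catalytic beta subunit had a positive and the membrane subunit a negative estimate, each smaller than its error.

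**Figure D3:**
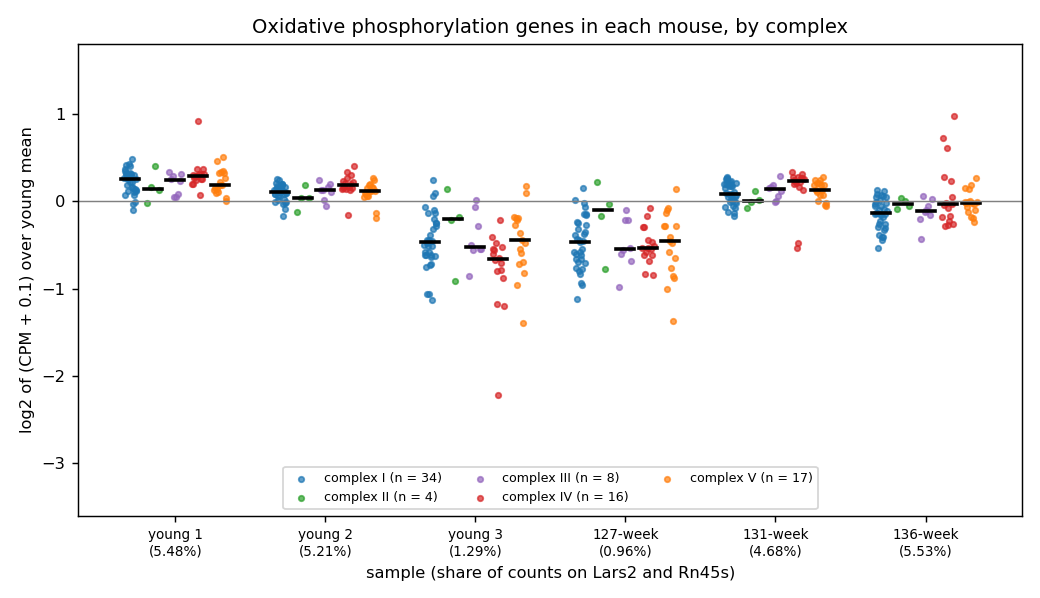
Each point is 1 of 79 members in 1 sample, as log2 of its CPM plus 0.1 over the mean of the young samples, coloured by complex, with black bars at the median of each complex. The percentages are the counts on Lars2 plus Rn45s out of all counts. Young 3 and the 127-week sample have lower medians than the other 4 in all complexes.

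The members differed more between libraries than between ages. Over the tested members, the median log2 level relative to the young mean was 0.30 in young 1, 0.17 in young 2 and -0.48 in young 3. In aged ECs it was -0.45 at 127, 0.21 at 131 and -0.01 at 136 weeks. Members took 0.690% of the counts in young 3 and 0.755% in the 127-week sample, against 0.823% to 0.977% in the others. In 62 of 79 members, young 3 and the 127-week sample were both below all 4 others, where 14.1% of all genes were. The few-rRNA libraries were lower by a median log2 difference of -0.65 over the members and -0.01 over all genes, and 74 of 79 members lay below 0. By complex, this difference was -0.58 in complex I, -0.20 in complex II, -0.63 in complex III, -0.83 in complex IV and -0.57 in complex V. The samples compared here were grouped by their rRNA counts and not by a label, and 2 libraries against 4 of mixed age is not a comparison of the study, so the difference is given as a description.

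At the low end were Atp5k, the e subunit that helps ATP synthase to form dimers (-1.64), the scarce isoforms Cox7a1 (-1.51) and Ndufa4l2 (-1.36), then Ndufa3 (-1.29) and Atp5e, the epsilon subunit (-1.19). Atp5k was at 28.4, 24 and 7.54 CPM in young and 7.67, 24.2 and 19.6 CPM in aged samples. At the other end were Ndufs1 (0.31) and Sdha (0.25), which carry iron-sulfur clusters and a flavin. Transcript length went along with this order, with exceptions. The median annotated transcript length was 321 bases for Atp5k, 364 for Cox7a1 and 350 for Ndufa3, but 2900 for Sdha. Ndufb2 (2413 bases, -1.13), Ndufc1 (1249 bases, -1.13), Ndufa4l2 (960 bases) and Ndufa11 (2661 bases, -0.64) were low in spite of longer transcripts. Across the 79 members, Spearman's rho between length and the difference between library clusters was 0.62. It was 0.08 over the 12943 other tested genes with a length, which were 89.1% of the 14533. All these points share the same 6 libraries.

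Below 600 bases, the median difference was -0.78 over 28 members and -0.35 over 272 other genes. Between 600 and 1000 bases it was -0.64 over 26 members and -0.12 over 1434 other genes, and between 1000 and 2000 bases -0.21 over 19 members and -0.01 over 3668. The 6 members of 2000 to 4000 bases had a median of -0.16, against 0.01 for 5230 other genes. Short genes outside the set were thus also lower in the few-rRNA libraries, and the members were lower than other genes in each length range. The part of transcript length, of RNA quality or of library preparation in the members' difference was not tested. For age, Spearman's rho between length and log2 fold change was 0.40 over the members and 0.01 over other genes.

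**Figure D4:**
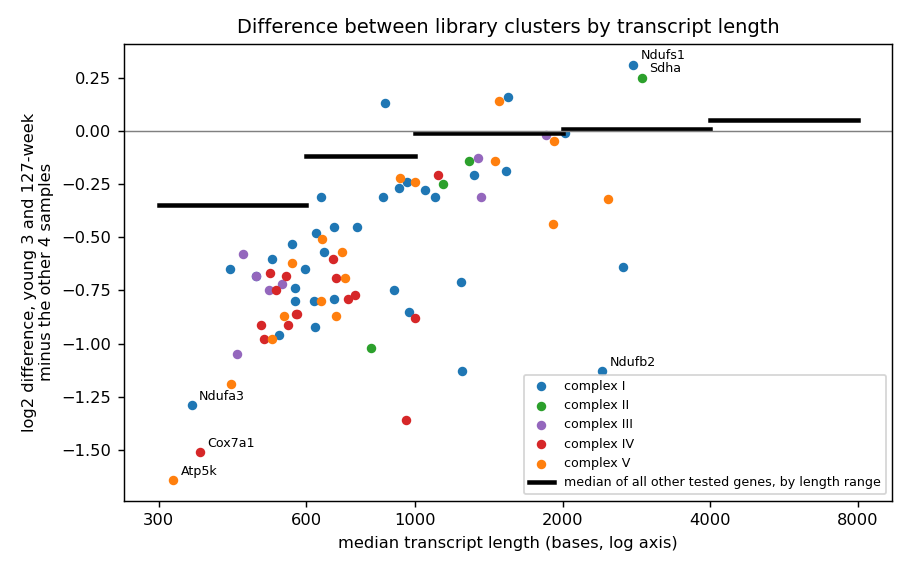
Log2 difference between the few-rRNA libraries (young 3 and 127-week) and the other 4, against median transcript length on a log axis, for the 79 tested members coloured by complex. Black lines give the median of other tested genes in each length range. Members reach -1.64 among the shortest transcripts, and the 6 members above 2000 bases have a median of -0.16.

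With the library cluster as a term beside age, the median 95% half-width over the members narrowed from 0.62 to 0.27, and the interval lay within 1 of 0 for 75 of 79 members and within 0.5 for 54. At an unadjusted p below 0.05, 2 members were lower in aged ECs and 0 higher, where 6.58% and 10.2% of all genes were. Both are accessory subunits of the membrane arm of complex I. Ndufb8 was at 153, 157 and 100 CPM in young and 79.7, 137 and 103 CPM in aged samples (-0.36 ± 0.13 SE, adjusted p = 0.276 by edgeR). Ndufb5 was at 85.4, 77.7 and 41.5 CPM in young and 35.7, 69.5 and 61.1 CPM in aged samples (-0.29 ± 0.10, adjusted p = 0.271). Within each library cluster the aged values of both genes were below the young ones. After adjustment, 0 members were called in either direction, where 0.00684% of all genes were called higher and 0.00684% lower. The median log2 fold change over the members was again -0.10.

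Among the 4 many-rRNA libraries alone, both aged samples were below both young samples in 31 of 79 members and above them in 2, where 22.4% and 23.1% of all genes were. The 2 above were Ndufs3, a core subunit of complex I, and Cox4i2. The 31 included Sdhb, Sdhc and Sdhd of complex II, Uqcr10, Uqcrc1 and Uqcrfs1 of complex III, and Ndufa8, Ndufb8 and Ndufc1 of complex I. With young 3 left out, the ages did not overlap in 28 members lower in aged ECs, where 15.9% of all genes were lower. Ndufa8, a subunit with cysteine motifs, was then lower at an unadjusted p below 0.05, where 558 of all 14501 genes were. The 127-week sample is the only few-rRNA library left in that setting, so age and library cluster cannot be fully told apart there. The within-cluster median was -0.14 in the many-rRNA libraries and -0.01 between the 127-week sample and young 3.

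Some members could not be measured with certainty. Ndufs5, a complex I accessory subunit, had 0 counts in all 6 samples but FPKM values of 26.6, 13.8 and 25.5 in young and 11.4, 33.6 and 30 in aged samples. Of its 75-base stretches, 35.7% also occur elsewhere in mm9, at the pseudogene BC002163 on chromosome 16. That pseudogene had 15 to 36 counts per sample and 57.7 to 94.6 FPKM. The 2 deposited tables thus differ for this gene, and 62 of the 5857 symbols with 0 counts in all samples had a mean FPKM of at least 10, of which Ndufs5 was the only member. Another 75-base stretch of the genome matched part of 32 members, more than 10% of the transcript in 15 and more than 50% in 2. The 2 were Atp5g2, which supplies the c ring (100%, with copies at Gm10231 on chromosome 17 and Gm10175 on chromosome 7), and Atp5l, the g subunit (85.8%). Their counts could include or lack reads of these copies.

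The rest of the pathway was examined with lists of related genes, where the same fit was used. Of 47 tested assembly factors, 0 were higher and 2 lower in aged ECs at an unadjusted p below 0.05, where 8.32% and 4.32% of all genes were. The median log2 fold change was -0.12, with 39 below 0. The 2 lower genes help to assemble cytochrome c oxidase. Coa3 was at 68.2, 59.4 and 46.9 CPM in young and 38.8, 42.9 and 43.8 CPM in aged samples (-0.48 ± 0.17 SE, adjusted p = 0.336 by edgeR). Coa4 was at 6.25, 6.36 and 5.99 CPM in young and 4.95, 3.38 and 2.44 CPM in aged samples (-0.79 ± 0.32, adjusted p = 0.379). The ages did not overlap for either, and neither passed the adjusted threshold. Of the 47 assembly factors, 6 were lower in every aged sample and 1 higher, where 8.33% and 9.62% of all genes were.

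Among 15 tested subunits and carriers outside the symbol rule, such as cytochrome c and the adenine nucleotide carriers, 1 was higher and 1 lower at an unadjusted p below 0.05, against 8.32% and 4.32% of all genes. Ucp2, an inner membrane carrier of the uncoupling protein family, was at 248, 294 and 335 CPM in young and 144, 190 and 198 CPM in aged samples. Every aged value was below every young one, as in 8.33% of all genes (-0.72 ± 0.19 SE, adjusted p = 0.250 by edgeR and 0.0222 by DESeq2). Etfa, a subunit of the flavoprotein that passes electrons from fatty acid oxidation to ubiquinone, was at 71.7, 65.7 and 59.6 CPM in young and 83.2, 73.1 and 100 CPM in aged samples (0.38 ± 0.16, adjusted p = 0.395 by edgeR). Of 19 genes of the tricarboxylic acid cycle, 0 were higher and 0 lower at an unadjusted p below 0.05, against the same 8.32% and 4.32% of all genes, and the median log2 fold change was -0.01. The 13 mitochondrially encoded subunits were not analysed here.

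Of 25 regulators of respiratory genes, 1 was higher and 0 lower at an unadjusted p below 0.05, against 8.32% and 4.32% of all genes. It was Pprc1, a coactivator of the PGC-1 family, at 41.3, 46.7 and 42.3 CPM in young and 56.2, 63.3 and 76.3 CPM in aged samples (0.59 ± 0.16 SE, adjusted p = 0.250 by edgeR). The better known Ppargc1a was scarce, at 0.335, 0.18 and 0.694 CPM in young and 0.756, 0.70 and 1.10 CPM in aged samples (1.05 ± 0.69, adjusted p = 0.586). Ppargc1b had an estimate of 0.97 ± 0.60 (adjusted p = 0.568). Nrf1 and Gabpa, whose motifs were counted in the promoters, had estimates of -0.07 ± 0.18 and 0.03 ± 0.16. Esrra, an orphan nuclear receptor that works with PGC-1 coactivators, had an estimate of -0.13 ± 0.26, and Tfam, the mitochondrial DNA packaging and transcription factor, 0.10 ± 0.18.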

How the data were processed

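RNA from sorted liver ECs of 3 young and 3 aged mice had been sequenced as single-end 75-base reads. The submitters' processing notes name CASAVA 1.8.2, TopHat2 2.1.0 and Cuffnorm 2.2.1, with mm9 as the build. The authors deposited raw read counts for each gene symbol together with Cuffnorm's FPKM values. The counting program, annotation and strand setting are not given in the sources used here, so overlapping genes are uncertain.

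Genes reaching 0.5 CPM in 1 or more samples were retained, scaled by TMM and tested by the quasi-likelihood method of edgeR (edgeR 4.0.16, R 4.3.3), and p-values were adjusted by Benjamini-Hochberg over all 14612 genes. Each SE was derived from the log2 fold change and its F statistic. Alternatives used DESeq2 1.42.0, limma 3.58.1 on deposited FPKM after log2 transformation with a pseudocount of 0.1 or 1, other filters and scalings, a library cluster term (below or above 2.5% of counts on Lars2 and Rn45s), and each mouse left out. Differences between library clusters are means of log2 CPM. Methods were tested on simulated data. In pairs of libraries of 1 age, chi-square per degree of freedom was at least 20.2, far above sampling noise. That lowest value was between young 1 and young 2, and the other pairs ran from 146 to 186. The labels do not tie libraries to litters or sorting days, so p-values measure only the spread between these samples.

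The members and lists were chosen with earlier results of these data known. Named were, in each complex, the member of highest young FPKM and those of largest positive and negative log2 fold change at a mean CPM of at least 10, members past an unadjusted p of 0.05, below the filter or at no more than 3 counts in an age group, the restricted isoforms with their partners, and in the lists genes past that p (at most the 4 smallest) with Ppargc1a, Ppargc1b, Nrf1, Gabpa, Esrra and Tfam. Other named genes were chosen after their values were seen. Lengths and 75-base matches used the GENCODE annotation and genome of mm9, and promoters RefSeq on GRCm38.p6, whose coordinates differ. The values of 1 member are not reported here singly, though it is held in all counts and medians.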

Additional observations from a re-analysis of the deposited data

How the results depend on the processing

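Under 21 alternatives the median log2 fold change over the members ran from -0.30 (limma-voom with sample weights) to 0.03, and 19 of the 21 medians were below 0. Leaving out 1 mouse gave medians of -0.29 to 0.03. No member passed an adjusted p of 0.05 under any alternative that gave p-values. At an unadjusted p below 0.05, 1 member was higher in aged ECs with no filter on low counts, and 1 with log2(FPKM + 0.1), with log2(FPKM + 1) and with log2(FPKM + 1) without a filter. Of all genes, 1335 of 18489, 906 of 13658, 862 of 13658 and 1097 of 18178 were higher in these settings, in that order. In each of these 4 the member was Cox8b, which also accounts for the 1 member whose ages did not overlap there with aged higher. Lower in aged ECs were 2 members with limma-voom (Ndufa8 and Ndufb8) and 2 with the library cluster term (Ndufb5 and Ndufb8), where 894 and 961 of all 14612 genes were lower. With ages that did not overlap and aged lower, 1 member was found with DESeq2 size factors and 1 with the DESeq2 Wald test, 1 with library totals alone and 1 in each of the 3 FPKM settings (Ndufs4). In the main fit, 8.33% of all genes were lower in every aged sample and 9.62% higher. Among the many-rRNA libraries 31 members were lower and 2 higher, where 22.4% and 23.1% of all genes were. Leaving out 1 mouse gave 0 to 1 members lower at an unadjusted p below 0.05, where 346 to 887 of all genes were. Without overlap, it gave 0 to 28 members lower and 0 to 3 higher. The 28 were found without young 3, where 15.9% of all genes were lower. For the other mice left out that share is not given. The causes were not tested. Over all genes, calls at an adjusted p of 0.05 were 480 higher and 150 lower with DESeq2 and 13 and 2 with limma-voom. Of 438 recomputed log2 fold changes of 21 named members, 48 changed sign and 0 passed an adjusted p of 0.05, and 10 of 105 medians by complex changed sign. The few-rRNA libraries, 1 of each age, gave differences but no counts of calls. No paired analysis was possible because the aged samples carry no replicate numbers and the ages share none. With 3 mice a group and a median 95% half-width of 0.62, log2 differences of that size could not be told from 0 for a typical member.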
